A study of Drosophila melanogaster with 6 samples.

Results

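The 10 genes of the fly antioxidant system studied here in adult females on a high-fat diet were the superoxide dismutases Sod1, Sod2 and Sod3, catalase (Cat), the regulator cap-n-collar (cnc) and its inhibitor Keap1, the glutathione synthesis subunits Gclc and Gclm, the thioredoxin reductase Trxr1 and the peroxiredoxin Jafrac1. A probe set was taken as a member when the array annotation gave it 1 gene symbol and that symbol was in this set. By this rule 10 probe sets of 8 genes were found, among 18769 probe sets and 11982 named genes in all. Sod1 and Jafrac1 (now Prx2 in RefSeq) have no probe set named for them alone in the annotation used here and were not analysed here. Sod3 and cnc have 2 probe sets each, and the other 6 genes have 1.

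The high-fat diet (HFD) group held 3 arrays of w1118 females fed for 1 week on food with coconut oil at 20% weight per volume, and the regular diet (RD) group held 3 arrays of w1118 females fed Jazz-Mix food for the same week. All flies went onto their food at 3 to 5 days of age, were kept in normal oxygen, and gave whole-body RNA at 10 to 12 days. Each sample was 1 Affymetrix array with linear MAS5 signals. Since the RNA came from whole bodies, fewer cells of a type and less RNA per cell cannot be told apart. No label states that the samples of a diet came from separate cultures, and the p-values then cover only the spread among these arrays, which may be technical.

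As background, superoxide dismutases turn superoxide into hydrogen peroxide, in the cytosol (Sod1), the mitochondrion (Sod2) or outside the cell (Sod3), and catalase and the peroxiredoxins remove the peroxide. Glutathione, made in a rate-limiting step by glutamate-cysteine ligase, and thioredoxin, kept reduced by thioredoxin reductase, supply the reducing power. The bZIP factor cnc, the fly relative of mammalian NRF2, switches on many of these genes under oxidative or electrophilic stress, while Keap1, an adaptor of a Cul3 ubiquitin ligase, holds it in check. Much of this control acts on the cnc protein, which arrays do not measure.

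Of the 9 member probe sets bright enough to be tested, 2 passed an adjusted p of 0.05 (limma, Benjamini-Hochberg over 11261 probe sets): cnc rose and 1 of the 2 probe sets of Sod3 fell, each by 0.31 on the log2 scale. The other 7 did not pass, and the members' differences were small, with a median absolute log2 difference of 0.098 against 0.17 over all tested probe sets. Their median within-diet SD (log2) was also smaller, 0.091 against 0.119. Neither comparison was matched for signal, so neither shows the members to be unusually stable. Set against the 1000 tested probe sets nearest in signal, 3 of the 9 had a within-diet SD below the neighbours' median. The others were more variable than that median. Across the array 19.6% of tested probe sets passed in either direction, 13.0% higher and 6.68% lower in HFD. The members' 2 of 9 (22.2%) is near that background and is not a result about the members as a group. Their median log2 difference was -0.058, and that of all tested probe sets was 0.0091. The HFD arrays lay entirely above or entirely below the RD arrays for 4 of the 9, cnc and Trxr1 above and Sod3 and Gclm below. This is also near the background, where 42.1% of tested probe sets did not overlap, 23.4% with HFD above and 18.8% with HFD below.

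**Figure D1:**
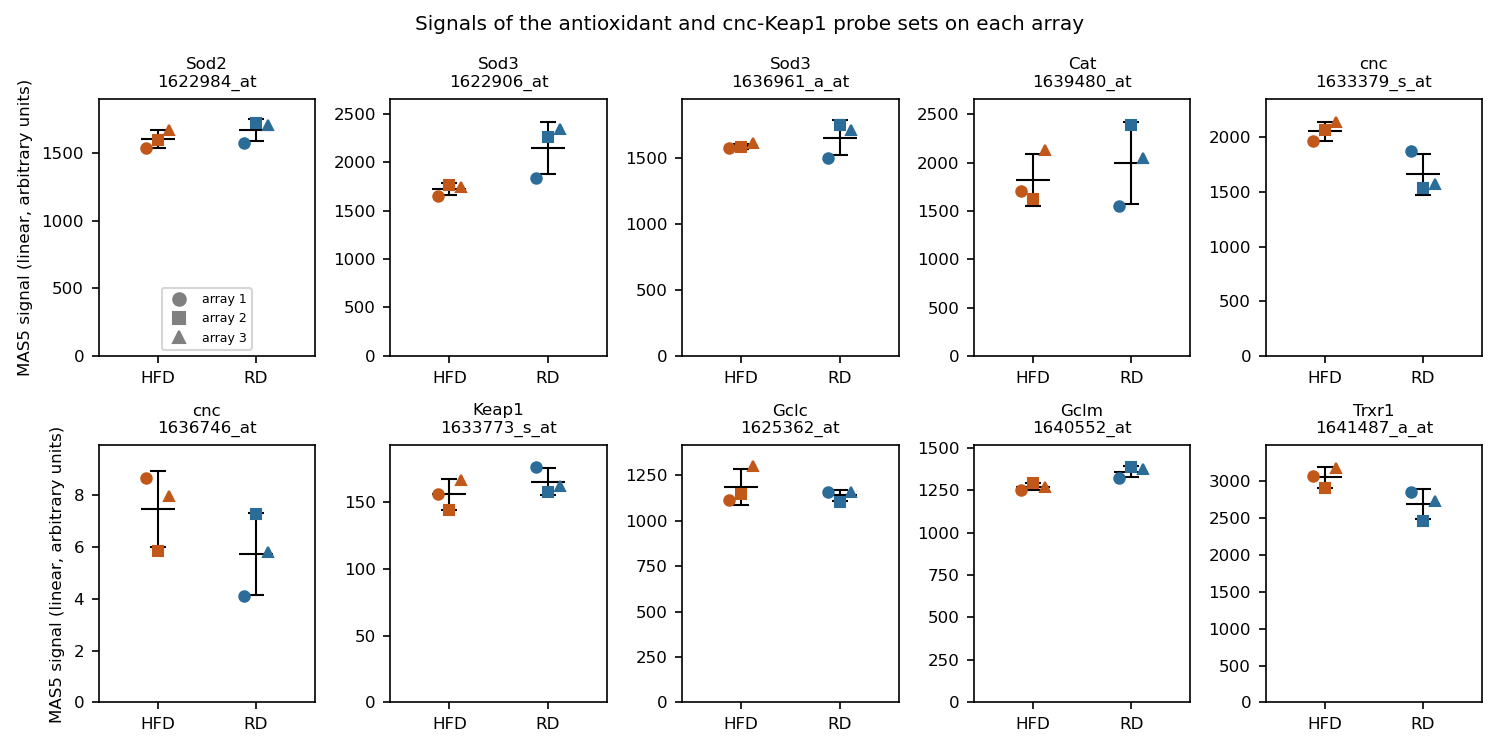
MAS5 signal (linear, arbitrary units, axes from 0) of the 10 member probe sets on each array, HFD left and RD right; points are arrays, bars the mean ± SD of 3 arrays. The diets separate for cnc (1633379_s_at), Sod3 (1622906_at), Gclm and Trxr1, and RD array 1 lies toward the HFD arrays for cnc and Sod3 (1622906_at).

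Among the regulators, cnc was higher in HFD. Its probe set 1633379_s_at had signals of 1964, 2066 and 2139 on the HFD arrays, against 1879, 1536 and 1573 on the RD arrays. All HFD signals lay above all RD signals, and RD array 1 stood apart from the other RD arrays and close to HFD array 1. The means were 2057 ± 87.8 in HFD and 1663 ± 189 in RD (SD, n = 3 each), a log2 difference of 0.31 ± 0.082 (SE), or 1.24-fold, with a 95% interval of 1.09-fold to 1.41-fold (limma, adjusted p = 0.0338). The suffix _s_at marks a probe set that may match transcripts of more than 1 gene. The estimate was 0.40 without RD array 1 (adjusted p = 0.00318). The call was lost without HFD array 1, 2 or 3 (adjusted p = 0.0656, 0.0949 and 0.0911), and also on leaving out RD array 2 (0.0902) or RD array 3 (0.114), with estimates of 0.26 to 0.34.

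The second cnc probe set, 1636746_at, was too dim to test. It had signals of 8.65, 5.84 and 7.95 in HFD and of 4.10, 7.27 and 5.79 in RD, all below the filter level of a mean signal of 28.6, and the diets overlapped. It therefore neither repeats nor contradicts the difference at the bright probe set.

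Keap1, the inhibitor of cnc, did not pass. Its only probe set, 1633773_s_at, has the same suffix as that of cnc and so may also match transcripts of another gene. Its signals were 156, 144 and 167 in HFD, against 176, 157 and 162 in RD, and the diets overlapped. The log2 difference was -0.087 ± 0.10 (limma, adjusted p = 0.563), and its 95% interval, 0.801-fold to 1.11-fold, leaves room for a modest difference either way. The size depended on the scaling: it was -0.22 with quantile normalization (adjusted p = 0.0963) and -0.30 with median centring (adjusted p = 0.0582). Over all 18 alternatives it ran from -0.30 to -0.032, and none passed. Taken within each array, log2 of cnc over Keap1 was 3.64, 3.83 and 3.68 in HFD and 3.41, 3.28 and 3.27 in RD. This ratio was higher on every HFD array than on every RD array, by 0.40 on average. The exact permutation p was 0.1 (two-sided, the smallest that 3 against 3 arrays allow), and the adjusted p was 0.1 over 3 such ratios. Since cnc alone separated the diets and Keap1 did not, the ratio, at the scaling reported, mostly restates the difference at cnc. Only the change of this ratio between arrays can be read, not its size, since the probe sets differ.

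Of the superoxide dismutases, Sod3 gave different readings at its 2 probe sets. At 1622906_at the signals were 1648, 1768 and 1742 on the HFD arrays, against 1837, 2264 and 2339 on the RD arrays. Every HFD signal lay below every RD signal, and RD array 1 was again the RD array nearest to HFD. The means were 1719 ± 63.4 in HFD and 2147 ± 271 in RD, a log2 difference of -0.31 ± 0.091, or 0.805-fold with a 95% interval of 0.696-fold to 0.932-fold (limma, adjusted p = 0.0478). That adjusted p stands just inside the threshold. The estimate was -0.42 without RD array 1 (adjusted p = 0.00237), and the call was lost without any of the other arrays: adjusted p was 0.143, 0.0961 and 0.0927 without HFD array 1, 2 and 3, and 0.127 and 0.147 without RD array 2 and 3.

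At the other Sod3 probe set, 1636961_a_at, the signals were 1570.5, 1579.9 and 1609 in HFD, against 1498, 1749 and 1711 in RD. The HFD signals lay inside the RD range, and RD array 1 was the lowest of all 6. The log2 difference was -0.056 ± 0.066 (limma, adjusted p = 0.572), with a 95% interval of 0.866-fold to 1.07-fold. It was -0.12 without RD array 1 and -0.013 without RD array 2. The suffix _a_at marks a probe set that matches several transcripts of 1 gene. Within each array, log2 of 1622906_at over 1636961_a_at was 0.069, 0.16 and 0.11 in HFD, against 0.29, 0.37 and 0.45 in RD. The HFD values were all lower, by 0.26 on average. The exact permutation p was 0.1, the smallest possible here, and the adjusted p was 0.1 over the 3 ratios. With so few arrays this test could not pass the threshold, so it does not show that the 2 probe sets moved unequally. Since 1622906_at alone separated the diets and 1636961_a_at did not, the ratio also partly restates the difference at 1622906_at. Which transcripts each probe set reads was not analysed here.

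Sod2, the mitochondrial enzyme, did not pass. Its signals were 1538, 1598 and 1673 in HFD, against 1577, 1719 and 1710.1 in RD, with the diets overlapping. The log2 difference was -0.058 ± 0.057 (limma, adjusted p = 0.495), with a 95% interval of 0.876-fold to 1.05-fold. The size depended on the scaling: with median centring it was -0.27 (adjusted p = 0.0258), in a fit that passed 44.4% of all tested probe sets. It was -0.090 with array weights (adjusted p = 0.0328), in a fit that passed 54.5% of them. With the 3'/5' ratio of control transcripts as a covariate it was 0.023 (adjusted p = 0.927).

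Catalase was the most variable of the 9 tested probe sets. Its signals were 1711, 1622 and 2128 in HFD, against 1556, 2396 and 2044 in RD. Both diets held arrays with low and high values, and the RD arrays alone spanned 1.54-fold. Its within-diet SD (log2) was 0.27, which is 3.60 times the median of the 1000 tested probe sets nearest to it in signal and higher than in 95.4% of them. On the log2 scale Cat differed by -0.12 ± 0.16 (limma, adjusted p = 0.609), and its 95% interval ran from 0.711-fold to 1.19-fold, the widest of the 9. The estimate rested on single arrays: it was -0.29 without RD array 1, -0.24 without HFD array 3, -0.044 without HFD array 2 and 0.019 without RD array 2. With the 3'/5' ratio of control transcripts as a covariate it was 0.21 (adjusted p = 0.628). With array weights it was -0.29, as without RD array 1, and passed (adjusted p = 0.0146). That fit passed 54.5% of all tested probe sets, and the estimation of its weights stopped before it converged.

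The subunits of glutamate-cysteine ligase both stayed short of the threshold. Gclc, the catalytic subunit, had signals of 1114, 1149 and 1300.1 in HFD, against 1156, 1105 and 1161 in RD. HFD array 3 was the highest and the other HFD arrays lay within the RD range. Gclc differed by 0.055 ± 0.069 on the log2 scale (limma, adjusted p = 0.589), with a 95% interval of 0.931-fold to 1.16-fold.

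Gclm, the modifier subunit, had signals of 1249, 1291 and 1269 in HFD, against 1319.5, 1384 and 1373 in RD. The diets did not overlap, yet the means, 1269 ± 20.9 in HFD and 1359 ± 34.6 in RD, differed by little. The log2 difference was -0.098 ± 0.048 (limma, adjusted p = 0.187), with a 95% interval of 0.865-fold to 1.01-fold. Gclm was the least variable member, with a within-diet SD of 0.031, 0.409 times the median of its 1000 neighbours in signal. Log2 of Gclc over Gclm was -0.17, -0.17 and 0.035 in HFD, against -0.19, -0.32 and -0.24 in RD. That ratio was 0.15 higher in HFD (exact permutation p = 0.1, the smallest possible here; adjusted p = 0.1 over the 3 ratios).

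Trxr1, the thioredoxin reductase that in flies also serves glutathione, since flies lack a glutathione reductase, had signals of 3072, 2904 and 3179 in HFD, against 2858, 2460.3 and 2737 in RD. The HFD arrays all lay above the RD arrays, with RD array 1 close to HFD array 2. Trxr1 differed by 0.19 ± 0.066 on the log2 scale, or 1.14-fold with a 95% interval of 1.02-fold to 1.26-fold, and did not pass (limma, adjusted p = 0.0853). It passed without RD array 1, at 0.23 (adjusted p = 0.0443). With each array centred on its median the estimate was -0.022 (adjusted p = 0.822).

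**Figure D2:**
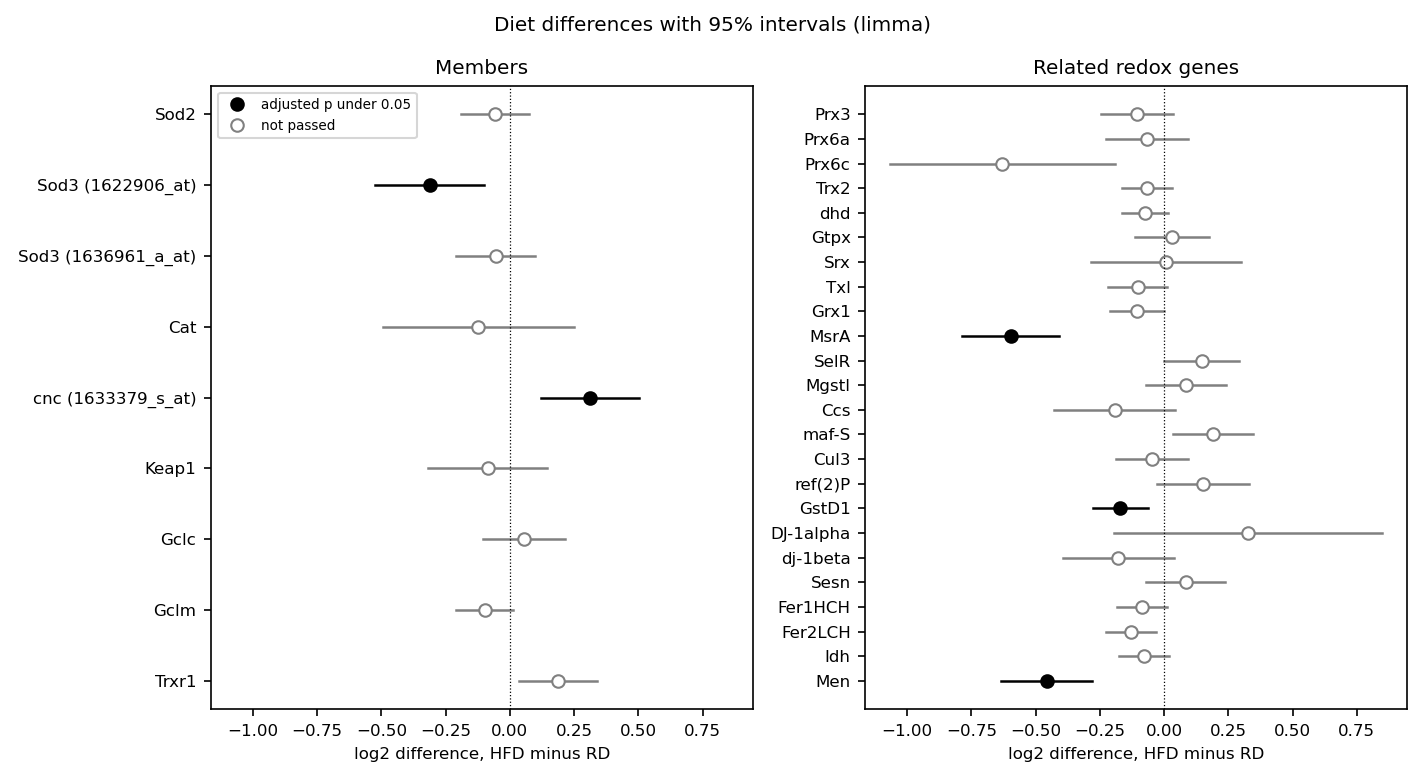
Log2 difference in signal, HFD minus RD, with its 95% interval (limma), for the 9 tested member probe sets (left) and 24 tested genes of related redox lists (right); filled points passed an adjusted p of 0.05. Among the members cnc lies to the right of 0 and Sod3 (1622906_at) to the left, and among the related genes MsrA, GstD1 and Men lie to the left.

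Related redox genes were read from 3 lists of 21, 10 and 4 genes, of which 13, 9 and 2 were tested. Of the 13 thiol and glutathione redox enzymes, none rose and 1 fell (limma; at an unadjusted p under 0.05, 0 were higher and 3 lower), with a median log2 difference of -0.075. That is 7.69% of them, against 19.6% of all tested probe sets. The gene that fell was MsrA, which repairs oxidised methionine, with signals of 353, 398 and 419.7 in HFD, against 602, 568 and 599 in RD. Its HFD signals lay far below its RD signals (-0.60 ± 0.081, adjusted p = 0.0035). MsrA passed in all 18 alternatives, with adjusted p up to 0.0449. Of the 9 cnc partners and oxidative stress genes, none rose and GstD1 fell (at an unadjusted p under 0.05, 1 was higher and 2 lower), which is 11.1% of them, with a median of -0.046.

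GstD1, a glutathione transferase widely used as a reporter of cnc activity in flies, had signals of 7235, 7786 and 7859.9 in HFD, against 8336, 8698 and 8711 in RD. It was lower on every HFD array, opposite in direction to cnc (-0.17 ± 0.047, adjusted p = 0.0384). Its call was lost with quantile normalization, where the estimate was -0.057 (adjusted p = 0.233), and without the intensity trend in the variance model (0.124). Leaving out 1 array also ended the call for HFD array 1 (adjusted p = 0.0894), HFD array 2 (0.0847), RD array 2 (0.108) and RD array 3 (0.128). Of the 2 NADPH-generating enzymes, Idh did not pass and malic enzyme (Men) fell, with signals of 1739, 1853 and 1771 in HFD, against 2181, 2579.6 and 2627 in RD (-0.46 ± 0.076, adjusted p = 0.00678). Over the 3 lists 3 of 24 genes (12.5%) passed, all lower in HFD, against 19.6% of all tested probe sets in either direction and 6.68% lower. The diets separated for 15 of the 24 (62.5%), against 42.1% of all, and HFD lay below RD for 13 (54.2%), against 18.8% of all. These shares are not matched for signal, since each list gene was read at its brightest probe set and the background includes dim ones. Brighter probe sets also lay lower in HFD: their median log2 difference was -0.028 above the 60th percentile of signal, against 0.0091 for all tested. A background of like signal was not computed.

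RNA quality measures differed between arrays, and 1 of 3 controls separated the diets. For the actin control, the ratio of 3' to 5' signal, a measure that goes up with shorter RNA or shorter labelled copies, was 9.29, 8.35 and 8.93 on the HFD arrays and 7.85, 4.90 and 5.69 on the RD arrays. The diets did not overlap (exact permutation p = 0.1, two-sided, the smallest possible), and RD array 1 was the RD array closest to HFD. The GAPDH and eIF-4a ratios overlapped between the diets (exact permutation p = 0.2 each). So did the mean log2 ratio of all 3 controls (exact permutation p = 0.2), at 2.66, 2.49 and 2.63 in HFD and 2.52, 1.93 and 2.17 in RD, with RD array 1 above HFD array 2. RD array 1 was also the RD array nearest to the HFD mean for 6 of the 9 member probe sets, against 53.2% of all tested probe sets. With this mean ratio in the model, no member passed: cnc was at 0.14 (adjusted p = 0.497), Sod3 (1622906_at) at -0.10 (adjusted p = 0.634) and Trxr1 at 0.042 (adjusted p = 0.828). Of the related genes MsrA passed in that fit (-0.62, adjusted p = 0.0449), while GstD1 (-0.12, adjusted p = 0.454) and Men (-0.29, adjusted p = 0.0998) did not. No member had an unadjusted p under 0.05 in that fit, and 2.33% of all tested probe sets passed in it.

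**Figure D3:**
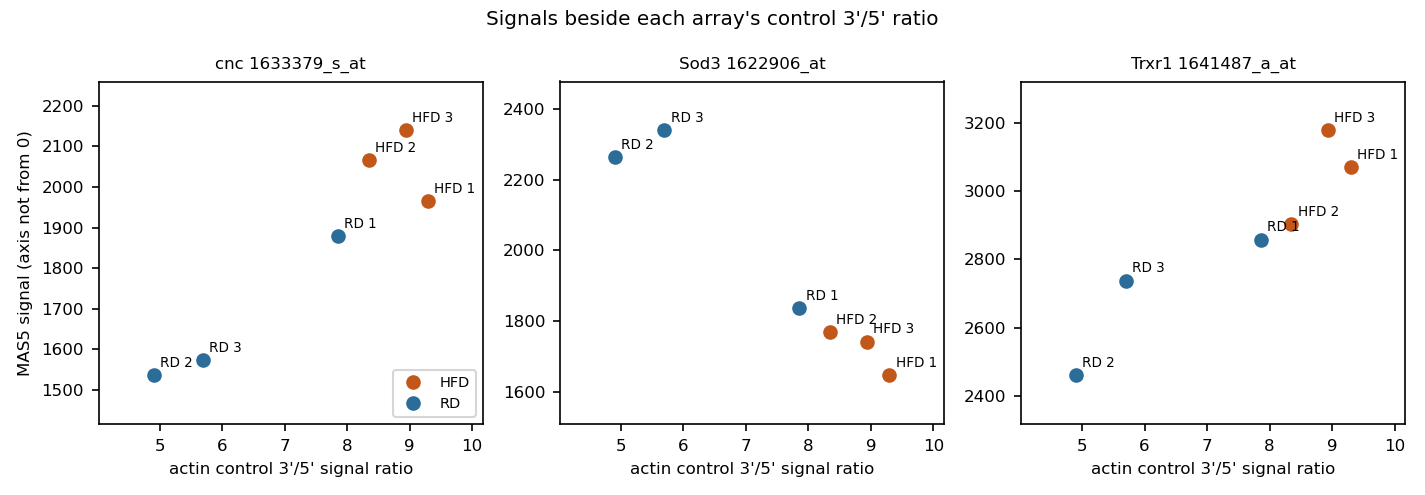
MAS5 signal of cnc (1633379_s_at), Sod3 (1622906_at) and Trxr1 on each array (y axis, not from 0) by the 3'/5' signal ratio of the actin control (x axis); each point is 1 labelled array. RD array 1, with a ratio of 7.85, lies between the other RD arrays and the HFD arrays on both axes in all 3 panels.

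Tissue markers also differed between the diets. Of tested muscle markers 7 of 8 rose (tn at 1.58 and Act88F at 1.38 on the log2 scale) and of neuron markers 7 of 7 (para at 1.28 and Rdl at 1.24). Of tested eggshell markers 8 of 10 fell (Cp18 at -1.35 and Cp16 at -1.23), of midgut proteases 6 of 8 (Jon25Bi at -3.41 and Jon99Ci at -2.81), and of fat body markers 3 of 3, Lsp2, Gnmt and apolpp. Summed signals of the muscle list were 7197 to 8517 in HFD and 3145 to 4431 in RD, of the neuron list 1434 to 1587 in HFD and 627 to 976 in RD, and of the eggshell list 55686 to 58672 in HFD and 78955 to 81692 in RD. The fat body sums were 4983 to 5783 in HFD and 8409.8 to 11255 in RD, and the protease sums 37884 to 43116 in HFD and 53778 to 61738 in RD. Of male reproduction markers 3 were tested and none passed (limma; none had an unadjusted p under 0.05). The part of these marker differences in the results for cnc, Sod3, GstD1, MsrA and Men was not tested.

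**Figure D4:**
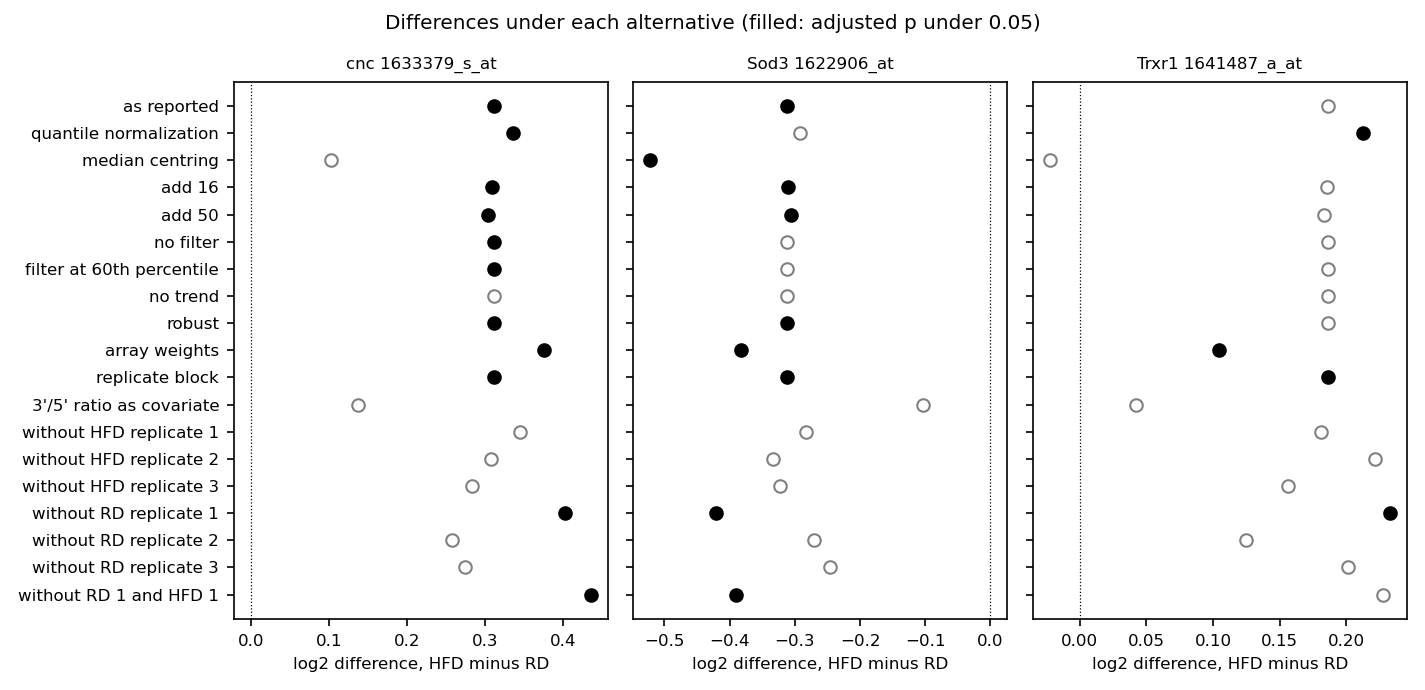
Log2 difference, HFD minus RD (x axis), of cnc, Sod3 (1622906_at) and Trxr1 as reported and under 18 alternatives (rows); filled points passed an adjusted p of 0.05. All estimates lie above 0 for cnc and below 0 for Sod3, and Trxr1 lies below 0 with median centring alone.

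The direction at cnc was positive in all 18 alternatives, and that at Sod3 (1622906_at) was negative in all 18. Several of these could not change a member's estimate, only its p-value. They are the fits without the filter, with the stricter filter, without the trend, with robust eBayes and with the replicate block. They therefore do not bear on direction for any member. For cnc, Sod3 (1622906_at), Gclm and Trxr1 the diets did not overlap. Leaving out arrays, adding a larger constant before log2 or weighting the arrays could therefore not turn their direction either. For these probe sets only quantile normalization, median centring and the 3'/5' ratio as a covariate could do so. The sizes varied, from 0.10 to 0.44 for cnc and from -0.52 to -0.10 for Sod3 on the log2 scale. Besides the fits already given, the cnc call was lost with median centring (adjusted p = 0.336) and without the intensity trend (0.0738). The Sod3 call was lost with quantile normalization (0.0604), without the filter on dim probe sets (0.0656), with a stricter filter (0.0562) and without the intensity trend (0.0939). Centring each array on its median moved the median log2 difference of all tested probe sets by -0.21. Relative to that median, cnc stood at 0.30, Trxr1 at 0.18 and Sod3 at -0.32. The centring cannot change these relative values, since it shifts every probe set by the same amount, so they do not bear on stability. Without that reference, Gclc (-0.15) and Trxr1 (-0.022) were negative with the centring. Gclc was also negative without HFD array 3 (-0.012) and with array weights (-0.0014). Cat was positive without RD array 2 and with the 3'/5' ratio of control transcripts as a covariate, and Sod2 (0.023) and Sod3 at 1636961_a_at (0.081) were positive with that ratio. None of these turned estimates passed the threshold, and Keap1 and Gclm were negative in all 18.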

How the data were processed

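Whole-body RNA of adult females was measured on 6 Affymetrix arrays, 3 HFD and 3 RD, with diets taken from the sample titles. Per the submitters' processing notes, the deposited intensity values, on a linear scale, come from MAS5, of a version not stated. Trimmed means (2% trimmed) were 327 to 343 over the arrays, and medians were 60.7 to 63.8 in HFD and 52.8 to 55.3 in RD. The number of arrays limits the precision.

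Control probe sets (183) were set aside, signals plus 1 were put on the log2 scale, and probe sets whose mean signal lay above the 40th percentile were kept (11261). Fold changes are on the log2(signal + 1) scale. HFD was set against RD with limma 3.58.1 (R 4.3.3; lmFit, then eBayes with a trend, two-sided). The fit was tested on simulated data with far fewer changed probe sets than passed here, so its rates are a guide only. It recovered 22% of changes of 0.25 on the log2 scale and 85.7% of changes of 0.5, and 4.73% of its calls were false. A member that did not pass can thus hold a change of 0.25 or, less often, of 0.5. The simulated spread followed signal alone, so these rates do not cover Cat, whose SD was 3.60 times the median of its neighbours. The annotation gave 1 gene symbol for 13647 probe sets, several for 402 and none for 4720. No coordinates or sequences are given.

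The members, lists and tests were chosen with earlier results of these data known. All members are named whatever their result. From each list the genes past the threshold are named, up to 5 by size, and 2 per marker list. Lists hold 21, 10 and 4 redox genes and 10 muscle, 8 neuron, 11 eggshell, 5 fat body, 8 protease and 8 male genes; the probe set with the highest mean signal stood for a gene. Same-numbered arrays of the 2 diets did not deviate together throughout (r = 0.060, 0.10 and 0.048 across probe sets), so the numbers were not taken as pairs. Figures used Python 3.11.15 and matplotlib 3.10.9.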

Additional observations from a re-analysis of the deposited data

How the results depend on the processing

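Over the alternatives, member probe sets past the threshold and higher in HFD numbered 2 with quantile normalization, array weights or the replicate block (cnc and Trxr1, with Trxr1 at adjusted p = 0.0487, 0.0348 and 0.0377) and 0 with median centring, without the trend in eBayes or with the control 3'/5' ratio, and 0 to 2 when 1 array was left out. Those lower numbered 4 with median centring (Sod2, both Sod3 sets and Gclm), 5 with array weights (these and Cat), 0 with quantile normalization, no filter, the filter at the 60th percentile, no trend or the 3'/5' ratio, and 0 to 1 when 1 array was left out. Keap1 and Gclc did not pass in any of the 18. Over all tested probe sets the count, 2212 as reported (19.6%), was 4996 with median centring (44.4%, with 4025 lower). It was 6141 with array weights (54.5%, with 3542 higher and 2599 lower). It was 2396 with quantile normalization (21.3%), 2537 with the replicate block (22.5%) and 1827 without the trend (16.2%). It was 1950 without the filter (10.4%), 1360 with the 60th percentile filter (18.1%) and 262 with the 3'/5' ratio (2.33%). Without 1 array it was 994 to 2706 (8.83% to 24.0%). The member and list counts with median centring or array weights thus came with many more calls on the whole array. Calls as reported were 66.0% higher and 34.0% lower in HFD, 52.0% and 48.0% after quantile normalization and 19.4% and 80.6% after median centring. Thiol and glutathione genes that rose numbered 1 with array weights, and those that fell 3 with quantile normalization, 9 with median centring, 2 with robust eBayes and 5 with array weights. Of the cnc partner list, 3 rose with array weights and 0 to 1 without 1 array; 5 fell with median centring, 3 with array weights, 0 with quantile normalization, no trend, the 3'/5' ratio or without array 1 of both diets, and 0 to 1 without 1 array. NADPH genes that fell numbered 2 with median centring or array weights and 0 with the 3'/5' ratio. The cause was not tested. The replicate block changed no member's call other than that of Trxr1, and leaving out array 1 of both diets together was chosen after seeing the data. The estimation of array weights stopped before it converged. No detection calls were used, so signal over background was judged by the filter level alone, under which 1 cnc probe set lay.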

Other observations

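Several genes of the related lists were singled out after their values were seen. The gene maf-S, coding for the small Maf protein that pairs with cnc on DNA, had signals of 1259, 1209 and 1211 in HFD, against 1163, 1070.2 and 996 in RD. The HFD arrays all lay above the RD arrays, as at cnc, but the difference did not pass (0.19 ± 0.067 on the log2 scale, limma, adjusted p = 0.0824) and was -0.018 with median centring. The ferritin light chain homologue Fer2LCH, an iron store, was lower on every HFD array (-0.13 ± 0.042, adjusted p = 0.066). The peroxiredoxin Prx6c was dim, with signals of 25.1, 34.0 and 30.7 in HFD and 57.6, 39.7 and 44.0 in RD, and did not pass (-0.63 ± 0.19, adjusted p = 0.0527).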
